A study of Homo sapiens with 8 samples.

Results

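The genes described here make, degrade or prepare the way for leukotrienes and prostaglandins, lipid messengers of inflammation. They were taken from a table of normalized expression values by gene name, from a set of 9 names (ALOX5, ALOX5AP, LTA4H, LTC4S, HPGD, PTGES2, PTGES3, PTGS1 and PLA2G4A). The table held 8 of the 9 among its 9543 genes, all 8 passed the filter on low values, and ALOX5, which encodes 5-lipoxygenase itself, was not analysed here. The cells were HL60, a human acute promyelocytic leukaemia line grown in suspension. They were exposed for 72 h to VC (vitamin C) with DZNep, to DZNep alone, to VC alone or to phosphate-buffered saline (PBS), with 2 libraries in each group. DZNep (3-deazaneplanocin A) inhibits S-adenosylhomocysteine hydrolase; the title of the series points to the effect of vitamin C on its action against acute myeloid leukaemia cells. Doses were not given in the sources used here. Separate cultures are not stated for the replicate libraries either, and p values thus measure only their spread, which may be technical.

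Both pathways start from arachidonic acid, which the cytosolic phospholipase encoded by PLA2G4A cuts from membrane lipids. In myeloid cells 5-lipoxygenase, helped by its activating protein FLAP (the product of ALOX5AP), turns arachidonic acid into leukotriene A4. The hydrolase encoded by LTA4H makes from this the neutrophil attractant leukotriene B4, while the synthase encoded by LTC4S joins it to glutathione to give leukotriene C4, a product typical of eosinophils, basophils and mast cells. On the other branch cyclooxygenase-1 (PTGS1) makes prostaglandin H2, synthases such as those encoded by PTGES2 and PTGES3 can form prostaglandin E2 from it, and the dehydrogenase encoded by HPGD inactivates prostaglandins.

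Values are given in units of the deposited table, in which every library has 1 common distribution of values, running between 2 and 10345 around a median of 88 and summing to 1988507. Read depth per library is therefore unknown, a shift shared by most genes would not be seen, and levels are compared between libraries for the same gene, never between genes. Spearman's rho across genes was 0.979 to 0.987 within groups and 0.944 to 0.984 between groups. Of 7 markers of promyelocytes and primary granules the table held MPO, CTSG, CD33 and MYB. Their summed values, mostly MPO, were 3753 to 5091 units per library. Such a sum adds scores of different genes, so it is not an amount of RNA, and changes in opposite directions cancel in it. The single markers moved apart against PBS: CTSG was called lower with the combination and with DZNep (log2 fold change -1.80 and -1.20). MYB was called higher with both (0.52 and 0.63), CD33 higher with the combination (0.40), and MPO in neither. MPO was at 3652 and 3652 units with the combination and with DZNep, 3114 and 3652 with VC, and 3652 and 2726 with PBS. Values tied at the same score can hide a change, so its lack of a call is not read as no change. Differences were tested with limma on log2(value + 1) over all 9513 genes past the filter, two-sided, and a gene was called at a Benjamini-Hochberg adjusted p under 0.05. Fold changes and standard errors (SE) are on that scale, which slightly understates the change of low values.

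DZNep raised the FLAP gene ALOX5AP, the leukotriene C4 synthase gene LTC4S and the prostaglandin-inactivating gene HPGD, and lowered the cyclooxygenase gene PTGS1. With VC and DZNep together, ALOX5AP, HPGD and PTGS1 were again called against PBS and in the same directions. The phospholipase gene PLA2G4A was called higher there and the leukotriene A4 hydrolase gene LTA4H lower, while LTC4S was not called. Set directly against DZNep, the combination gave 0 calls among the 8 genes, where 0.673% of all genes were called. These differences in calls against PBS are thus not shown to be effects of adding VC. VC alone gave 0 calls among the 8 genes, with 1 at an unadjusted p under 0.05, where limma called 0% of all genes and 4.86% had such a p. PTGES2 and PTGES3 were called in no comparison. As these are bulk samples, a change in the share of cells of a kind and a change of RNA per cell cannot be told apart.

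**Figure D1:**
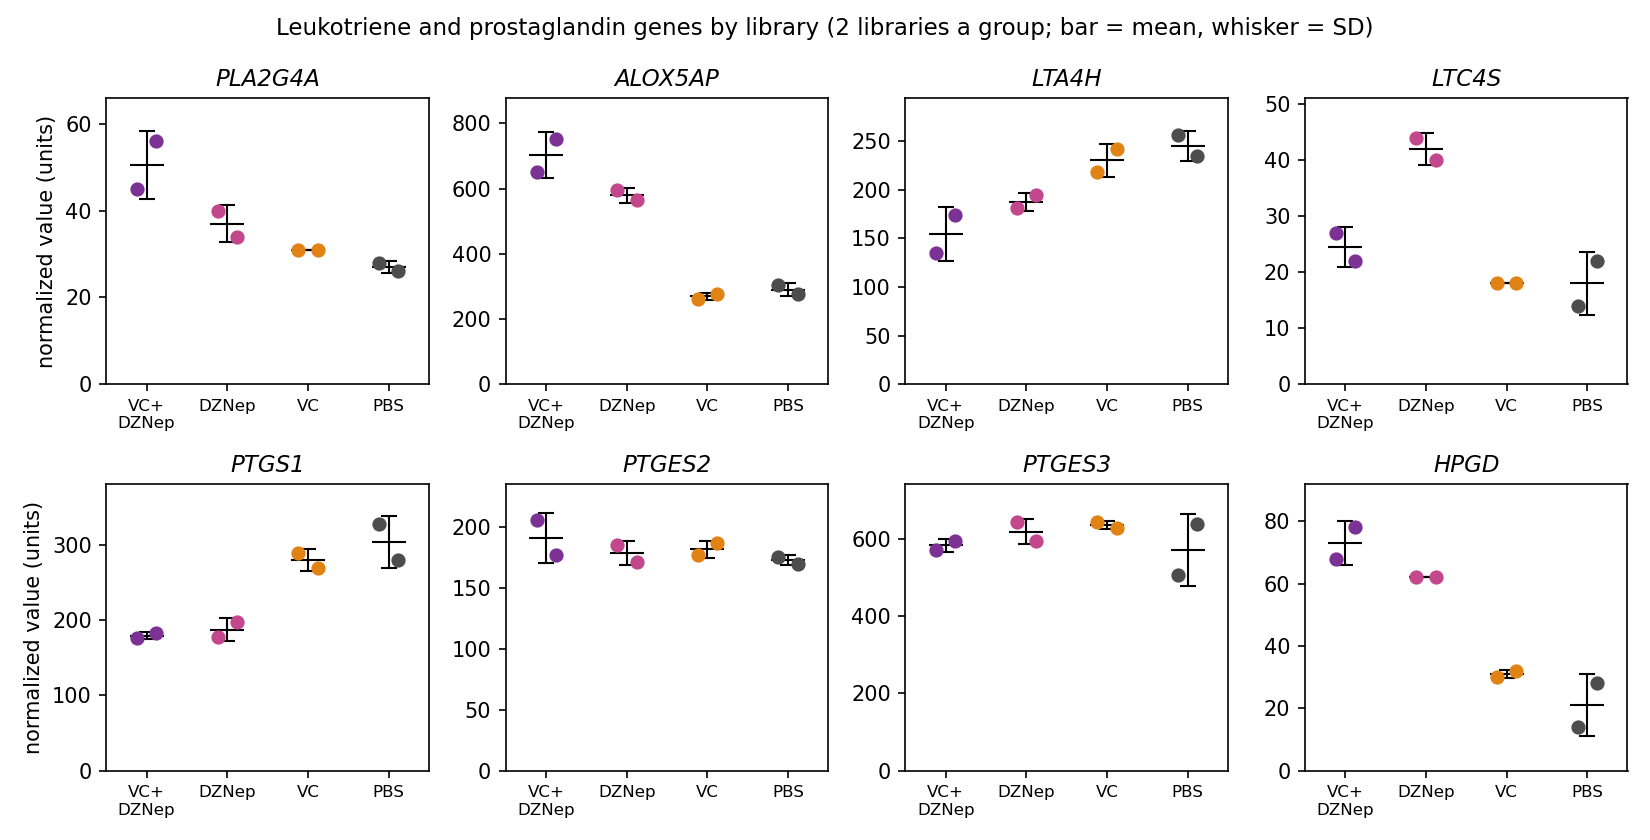
Normalized value in units (vertical axes, from 0) of each of the 8 genes in each library, by group along the horizontal axis, with points for libraries, bars for group means and whiskers for SD (n = 2). PLA2G4A, ALOX5AP and HPGD are higher, and LTA4H and PTGS1 lower, in all 4 libraries with DZNep than in all 4 without it. The share of all genes that split in this way was not counted, so the split is not read as a trait of these genes. The LTC4S libraries with DZNep alone (44 and 40 units) lie above all others.

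For orientation, the reference promoter sequences of the 4 genes called with DZNep alone are shown, each from 250 bases before to 50 bases after a transcription start in RefSeq on GRCh38.p14. Capitals mark matches, on either strand, to 5 motifs. GAGGAA is the core of the PU box of myeloid genes, and TTGCNNAA is a form bound by C/EBP factors. Transcription factors of the GATA family bind the letters AGATAA. The GC box was searched as GGGCGG, and the TATA box as the letters TATAAA. Matches to different motifs did not overlap each other in these windows, although the last GC boxes of HPGD overlap each other.
ALOX5AP (chr13:30713235-30713534, plus strand): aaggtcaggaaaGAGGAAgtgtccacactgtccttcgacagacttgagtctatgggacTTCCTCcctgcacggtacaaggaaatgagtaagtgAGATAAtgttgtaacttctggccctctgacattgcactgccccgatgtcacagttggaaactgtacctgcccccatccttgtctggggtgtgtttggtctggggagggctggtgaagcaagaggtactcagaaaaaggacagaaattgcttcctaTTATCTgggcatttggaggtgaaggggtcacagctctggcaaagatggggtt
HPGD (chr4:174522439-174522738, minus strand): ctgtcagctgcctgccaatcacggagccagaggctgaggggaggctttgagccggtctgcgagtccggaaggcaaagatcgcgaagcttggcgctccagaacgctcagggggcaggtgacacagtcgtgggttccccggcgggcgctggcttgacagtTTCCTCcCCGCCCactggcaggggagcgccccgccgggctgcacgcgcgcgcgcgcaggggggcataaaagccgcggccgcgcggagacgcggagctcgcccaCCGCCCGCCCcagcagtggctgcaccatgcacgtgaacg
LTC4S (chr5:179793736-179794035, plus strand): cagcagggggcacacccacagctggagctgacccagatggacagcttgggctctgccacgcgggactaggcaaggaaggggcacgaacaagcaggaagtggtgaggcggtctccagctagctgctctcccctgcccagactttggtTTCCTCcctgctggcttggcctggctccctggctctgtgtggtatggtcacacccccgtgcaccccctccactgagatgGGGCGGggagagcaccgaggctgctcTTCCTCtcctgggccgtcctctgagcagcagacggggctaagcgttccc
PTGS1 (chr9:122370283-122370582, plus strand): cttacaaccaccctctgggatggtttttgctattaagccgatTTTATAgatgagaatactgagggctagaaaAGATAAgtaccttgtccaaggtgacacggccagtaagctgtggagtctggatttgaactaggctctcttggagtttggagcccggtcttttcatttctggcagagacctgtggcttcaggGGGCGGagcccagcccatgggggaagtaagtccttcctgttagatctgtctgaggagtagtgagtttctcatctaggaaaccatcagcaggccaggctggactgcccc

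The same table lists a second start for HPGD and for PTGS1, not shown. The PU-box core was matched in the windows of ALOX5AP (2 matches), LTC4S (2) and HPGD (1), and in 27.9% of all 35116 promoter windows of this length. The GATA motif was matched in those of ALOX5AP (2) and PTGS1 (1), against 10.3% of all windows, and the GC box in those of HPGD (3), LTC4S (1) and PTGS1 (1), against 45% of all windows. TTGCNNAA, found in 10.5% of windows, was matched in none of the 4, and TATAAA, found in 11.5%, once, in PTGS1. The windows differed in CpG dinucleotides: 3 in ALOX5AP, 4 in PTGS1, 10 in LTC4S and 34 in HPGD, against a median of 14. These are descriptions of the reference letters and not measurements of binding or methylation in HL60.

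PLA2G4A (ENSG00000116711, chr1:186828953-186988981, plus strand), at the head of both pathways, was at 45 and 56 units with VC and DZNep, 40 and 34 with DZNep, 31 and 31 with VC, and 28 and 26 with PBS. The order of the group means was thus combination, DZNep, VC and PBS. The combination against DZNep and VC against PBS were not called (limma adjusted p = 0.395 and 0.961), so a graded order is not shown. Against PBS the combination was 1.83-fold higher (log2 fold change 0.87 ± 0.207 SE, limma adjusted p = 0.0157). DZNep alone gave 0.44 ± 0.207 (adjusted p = 0.196) and the combination against VC 0.68 ± 0.207 (adjusted p = 0.0517), which did not pass. The call against PBS was lost without VC_DZNep replicate 2 (adjusted p = 0.111), without PBS replicate 2 (0.0611) and with the 4 libraries alone (0.0582). Over the alternatives of that comparison the adjusted p ranged from 0.0134 to 0.111.

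ALOX5AP (ENSG00000132965, chr13:30713478-30764426, plus strand) had the smallest p of the 8 genes in each comparison that sets DZNep-treated cells against PBS or VC. It was at 652 and 752 units with VC and DZNep, 596 and 564 with DZNep, 263 and 278 with VC, and 305 and 276 with PBS. Every library with DZNep lay above every library without it, and the VC and PBS libraries overlapped. DZNep raised it 1.99-fold (log2 fold change 1.00 ± 0.103, limma adjusted p = 0.000381), the combination 2.41-fold over PBS (1.27 ± 0.103, adjusted p = 2.98e-05) and 2.58-fold over VC (1.37 ± 0.103, adjusted p = 2.06e-05). These 3 calls held in all 16 alternatives of each comparison, with adjusted p of at most 0.0132. Adding VC to DZNep gave 1.21-fold (95% confidence interval 1.03 to 1.41), with both libraries higher, an unadjusted p of 0.0241 and a limma adjusted p of 0.287. VC alone gave a log2 fold change of -0.10 ± 0.103. The interaction (the VC effect in the presence of DZNep minus that in its absence) was 0.37 ± 0.146 (unadjusted p = 0.0276, adjusted p = 0.601) and did not pass.

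LTA4H (ENSG00000111144, chr12:96000828-96043520, minus strand) went the other way from ALOX5AP. It was at 135 and 174 units with VC and DZNep, 181 and 194 with DZNep, 218 and 242 with VC, and 256 and 234 with PBS. Only the VC and PBS libraries overlapped, and the combination against DZNep was not called (limma adjusted p = 0.391). The gene fell in the combination against PBS by 0.67 on the log2 scale (SE 0.136, limma adjusted p = 0.00729) and against VC by 0.58 (adjusted p = 0.0177), whereas DZNep alone gave -0.38 ± 0.136 (adjusted p = 0.0912). The call against PBS was lost without VC_DZNep replicate 1 (adjusted p = 0.0615) and with the 4 libraries alone (0.0569), over alternatives from 0.00229 to 0.0615. That against VC was lost without VC replicate 1 or 2 (0.0663 and 0.132), without VC_DZNep replicate 1 (0.119), with the 4 libraries alone (0.0728) and without the intensity trend (0.0593), over alternatives from 0.00747 to 0.132. Antisense genes share 582 and 121 exon bases with LTA4H in GENCODE 29, and strand-specific counting is not stated.

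LTC4S (ENSG00000213316, chr5:179793980-179796647, plus strand) was at 27 and 22 units with VC and DZNep, 44 and 40 with DZNep, 18 and 18 with VC, and 14 and 22 with PBS. DZNep alone was the highest group, and the combination overlapped PBS at 22 units. DZNep raised it 2.31-fold (log2 fold change 1.21 ± 0.275, limma adjusted p = 0.0179). That call was lost without PBS replicate 1 (adjusted p = 0.0891), without DZNep replicate 1 or 2 (0.101 and 0.0814) and with the 4 libraries alone (0.0708), over alternatives from 0.0111 to 0.101. The combination gave 0.45 ± 0.275 against PBS (adjusted p = 0.281) and -0.76 ± 0.275 against DZNep, with both libraries lower, an unadjusted p of 0.0192 and an adjusted p of 0.265. The interaction was -0.79 ± 0.388 (adjusted p = 0.666), so the effects of VC with and without DZNep were not shown to differ.

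PTGS1 (ENSG00000095303, chr9:122370530-122395703, plus strand) was at 176 and 183 units with VC and DZNep, 177 and 198 with DZNep, 290 and 270 with VC, and 328 and 280 with PBS. The libraries split by DZNep, with overlap within each side. PTGS1 was 1.62-fold lower with DZNep (log2 fold change -0.69 ± 0.117, limma adjusted p = 0.00421), 1.68-fold lower with the combination than with PBS (-0.75 ± 0.117, adjusted p = 0.00167) and 1.56-fold lower than with VC (-0.64 ± 0.117, adjusted p = 0.00541). The calls against PBS held in all 16 alternatives, and that against VC was lost without VC replicate 1 (adjusted p = 0.0611), over alternatives from 0.00193 to 0.0611. The combination against DZNep gave -0.06 ± 0.117, with a 95% interval of 0.802 to 1.15 for the fold.

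The prostaglandin E synthase genes stayed within a narrow range. PTGES2 (ENSG00000148334, chr9:128120693-128128462, minus strand) was at 206 and 177 units with VC and DZNep, 186 and 172 with DZNep, 177 and 187 with VC, and 176 and 170 with PBS. PTGES3 (ENSG00000110958, chr12:56663341-56688408, minus strand), whose product p23 is also a co-chaperone of HSP90, was at 572 and 596, 643 and 596, 643 and 628, and 506 and 638 units in the same order of groups. For both genes the range of the group means on the log2 scale (0.142 and 0.161) was smaller than the largest gap between libraries of a group (0.218 and 0.334). GENCODE 29 names 5 pseudogenes after PTGES3, and how reads that match them were counted is not stated, so its values are uncertain.

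HPGD (ENSG00000164120, chr4:174490177-174523154, minus strand) had the largest fold change of the 8 genes against PBS, with DZNep and with the combination. It was at 68 and 78 units with VC and DZNep, 62 and 62 with DZNep, 30 and 32 with VC, and 14 and 28 with PBS. The 4 groups did not overlap, and the gap between the PBS libraries was 0.951 on the log2 scale, the largest within any group for these genes. The combination was 3.54-fold higher than PBS (log2 fold change 1.82 ± 0.276, limma adjusted p = 0.00147), a call that held in all 15 alternatives, and 2.31-fold higher than VC (1.21 ± 0.276, adjusted p = 0.0156). DZNep alone was 3.02-fold higher than PBS (1.59 ± 0.276, adjusted p = 0.00473). Without PBS replicate 1 the log2 fold changes against PBS were 1.12 for DZNep and 1.35 for the combination, and without PBS replicate 2 they were 2.07 and 2.30. The DZNep call was lost without DZNep replicate 2 (adjusted p = 0.0532) and with the 4 libraries alone (0.055), over alternatives from 0.0012 to 0.055. The call against VC was lost without VC replicate 1 or 2 (0.0974 and 0.0739) and without either combination library (0.0656 and 0.117). The alternatives ranged from 0.00231 to 0.117. VC alone gave 0.62 ± 0.276 (unadjusted p = 0.0484, adjusted p = 0.954), and VC added to DZNep 0.23 ± 0.276 (adjusted p = 0.777).

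**Figure D2:**
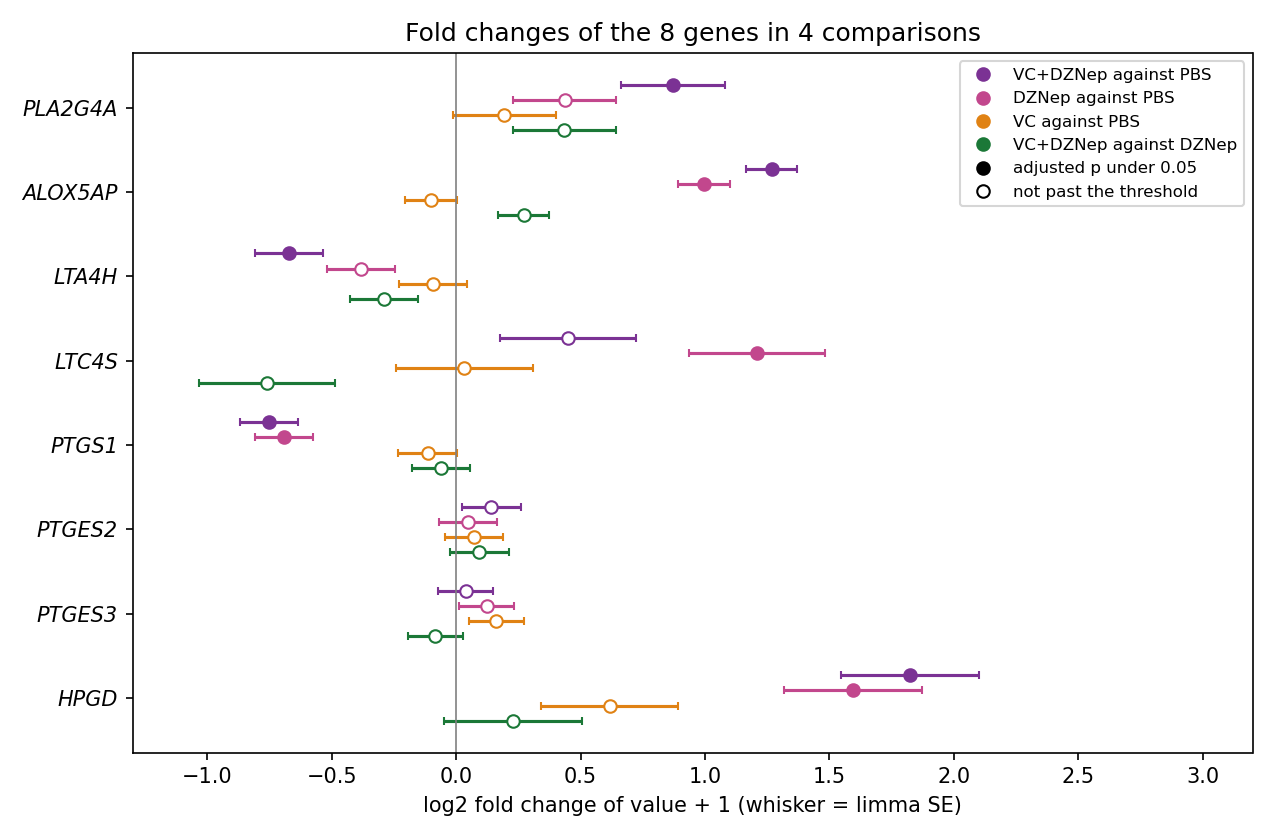
Log2 fold change (horizontal axis, whiskers are limma SE) of each of the 8 genes (rows) in 4 comparisons (colours), filled where the adjusted p was under 0.05. ALOX5AP and HPGD lie right of 0 and PTGS1 left of it in both comparisons of DZNep-treated cells with PBS (1.27 and 1.00, 1.82 and 1.59, -0.75 and -0.69), and no point of VC against PBS or of VC with DZNep against DZNep is filled.

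Counted together, 3 of the 8 genes rose and 1 fell with DZNep, where 13.1% of all genes tested were called, 6.42% higher and 6.63% lower. Their median log2 fold change was 0.28, against 0.01 over all genes. The combination gave 3 higher and 2 lower against PBS, where 19.7% of genes were called, 9.52% higher and 10.2% lower. The median of the 8 genes there was 0.30, against 0.01. Against VC it gave 2 higher and 2 lower, where 15% were called, 6.89% higher and 8.14% lower. These 3 comparisons share libraries, and the genes were picked with earlier results of these data known, so the counts are not independent of each other or of the choice. The gene with an unadjusted p under 0.05 for VC alone was HPGD. VC added to DZNep gave 0 calls of 8, with 2 genes (ALOX5AP and LTC4S) at an unadjusted p under 0.05, where 0.673% of genes were called and 13.5% had such a p. In that comparison the groups did not overlap for 5 of the 8 genes, 3 higher (PLA2G4A, ALOX5AP and HPGD) and 2 lower (LTA4H and LTC4S), against 40.9% of all genes, 20.6% higher and 20.4% lower. The interaction gave 0 calls of 8 and 1 gene (ALOX5AP) at an unadjusted p under 0.05, where 0.021% of genes were called and 7.78% had such a p.

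The rest of the eicosanoid system was followed in a list of 85 other genes, of which the table held 42. DZNep gave 7 higher and 3 lower, the combination 10 higher and 3 lower against PBS and 8 higher and 3 lower against VC, and VC alone and VC added to DZNep 0 calls each. Over all genes the shares called in the first 3 of these were 13.1% (6.42% higher and 6.63% lower), 19.7% (9.52% and 10.2%) and 15% (6.89% and 8.14%). LPCAT1, GGT5, HPGDS and FPR1 averaged under 10 units without DZNep and so passed the filter only through the libraries with it. Leaving these 4 out, 38 genes gave 5 higher and 3 lower with DZNep, 8 and 3 with the combination against PBS, and 7 and 3 against VC. The median log2 fold change of the 42 genes was 0.25 with the combination and 0.20 with DZNep, against 0.01 over all genes in both. Of the 8 receptors other than FPR1, 4 rose with the combination and 3 with DZNep, and 0 fell, against the 9.52% and 6.42% of all genes called higher.

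Receptors that rose with the combination included LTB4R, the high-affinity receptor of leukotriene B4, at 134 and 124 units with VC and DZNep, 190 and 134 with DZNep, 76 and 80 with VC, and 72 and 52 with PBS. It was the only one of these receptor genes called with DZNep in all alternatives (log2 fold change 1.37 ± 0.195, limma adjusted p = 0.0019), and with the combination it gave 1.06 (adjusted p = 0.00436). LTB4R shares 355 exon bases with the neighbouring receptor gene LTB4R2, so reads there cannot be assigned to either. PTGDR2, the prostaglandin D2 receptor of eosinophils and basophils, rose by 0.81 with DZNep and by 1.06 with the combination (adjusted p = 0.0179 and 0.00321), and shares 142 exon bases with CCDC86. PTGER2, a prostaglandin E2 receptor, rose by 0.69 and 0.91 (adjusted p = 0.0347 and 0.00725). Formyl peptide receptors, which also bind the lipid mediator lipoxin in the case of FPR2, were in the list too. FPR1 was at 22 and 34 units with VC and DZNep and 11 and 18 with DZNep, and at 2, the lowest value of the table, in all 4 libraries with VC or PBS, so no fold is given and its calls are not read. FPR2 was at 52 and 66 units with VC and DZNep, 22 and 26 with DZNep, 26 and 34 with VC, and 20 and 26 with PBS, and only the combination stood apart (1.32 ± 0.247 against PBS, adjusted p = 0.00473). Its difference between the combination and DZNep did not pass in the chosen fit, nor in 11 of 15 alternatives. It passed in the other 4: a pseudocount of 10 (limma adjusted p = 0.0444), a robust prior (0.0273), median-of-ratios scaling (0.0377) and the replicate block (0.0295). The difference is thus not shown to be an effect of adding VC.

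Leaving out a library ended several of these receptor calls. For DZNep against PBS, PTGER2 and PTGDR2 were lost without either DZNep library (adjusted p = 0.0659 and 0.187 for PTGER2, 0.0774 and 0.0982 for PTGDR2) and without PBS replicate 1 (0.0589 and 0.087). PTGER2 was also lost without PBS replicate 2 (0.141) and without VC replicate 1 or 2 (0.057 and 0.0572). For the combination against PBS, PTGER2 and FPR2 were lost without VC_DZNep replicate 2 (0.0707 and 0.0547).

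Of 18 phospholipases and other genes of arachidonate and phospholipid handling, 1 rose and 3 fell with the combination. Over all genes 9.52% were called higher and 10.2% lower there. With DZNep 2 rose, 1 of them LPCAT1, and 3 fell, against 6.42% higher and 6.63% lower over all genes. The fatty acid desaturase genes FADS1 and FADS2 and the elongase gene ELOVL5, which build arachidonic acid from linoleic acid, fell with DZNep and with the combination. FADS1 was at 28 and 34 units with VC and DZNep, 32 and 32 with DZNep, 90 and 82 with VC, and 80 and 76 with PBS. Its log2 fold changes against PBS were -1.31 ± 0.173 for the combination (limma adjusted p = 0.000643) and -1.26 for DZNep (0.00171), and these calls held in all alternatives. FADS2 fell by 0.85 and 0.77 (adjusted p = 0.0056 and 0.0132), and ELOVL5 by 0.66 and 0.46 (0.00388 and 0.0302). The FADS2 call was lost without VC_DZNep replicate 2 for the combination (0.055), and for DZNep without PBS replicate 1 (0.0682) and without DZNep replicate 1 or 2 (0.0744 and 0.0875). The ELOVL5 call with DZNep was lost without PBS replicate 2 (0.148), DZNep replicate 1 or 2 (0.17 and 0.0698) and VC replicate 1 or 2 (0.0557 and 0.0558). FADS1 and FADS2 lie on opposite strands and share 490 exon bases. LPCAT2, an acyltransferase that remodels membrane phospholipids and makes platelet-activating factor, rose by 0.97 with the combination and by 1.23 with DZNep (adjusted p = 0.00834 and 0.00374), calls lost without VC_DZNep replicate 2 (0.0892) and without DZNep replicate 2 (0.0606). Its PBS libraries stood at 844 and 1443 units, and without PBS replicate 1 the log2 fold change of the combination was 0.58.

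Among enzymes of the leukotriene and prostaglandin branches, COTL1, which encodes a 5-lipoxygenase-binding actin protein, rose with the combination (0.51 ± 0.113, limma adjusted p = 0.0113), as did the glutathione transferase gene MGST1 (0.42 ± 0.102, adjusted p = 0.0173). Both calls were lost without either VC_DZNep library (adjusted p = 0.0703 and 0.053 for COTL1, 0.0796 and 0.0783 for MGST1), and without PBS replicate 2 for COTL1 (0.0595) and PBS replicate 1 for MGST1 (0.0865). COTL1 passed with DZNep without PBS replicate 1 (0.0233), and GENCODE 29 names 2 pseudogenes after it. ZADH2, a prostaglandin reductase gene, rose in the combination against VC (0.53 ± 0.117, adjusted p = 0.0137) but gave 0.35 against PBS (adjusted p = 0.0585). Its call against VC was lost without VC replicate 1 or 2 (0.0544 and 0.114) and VC_DZNep replicate 2 (0.116), and without the intensity trend (0.0557), while its value against PBS passed with a robust prior (0.0495).

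**Figure D3:**
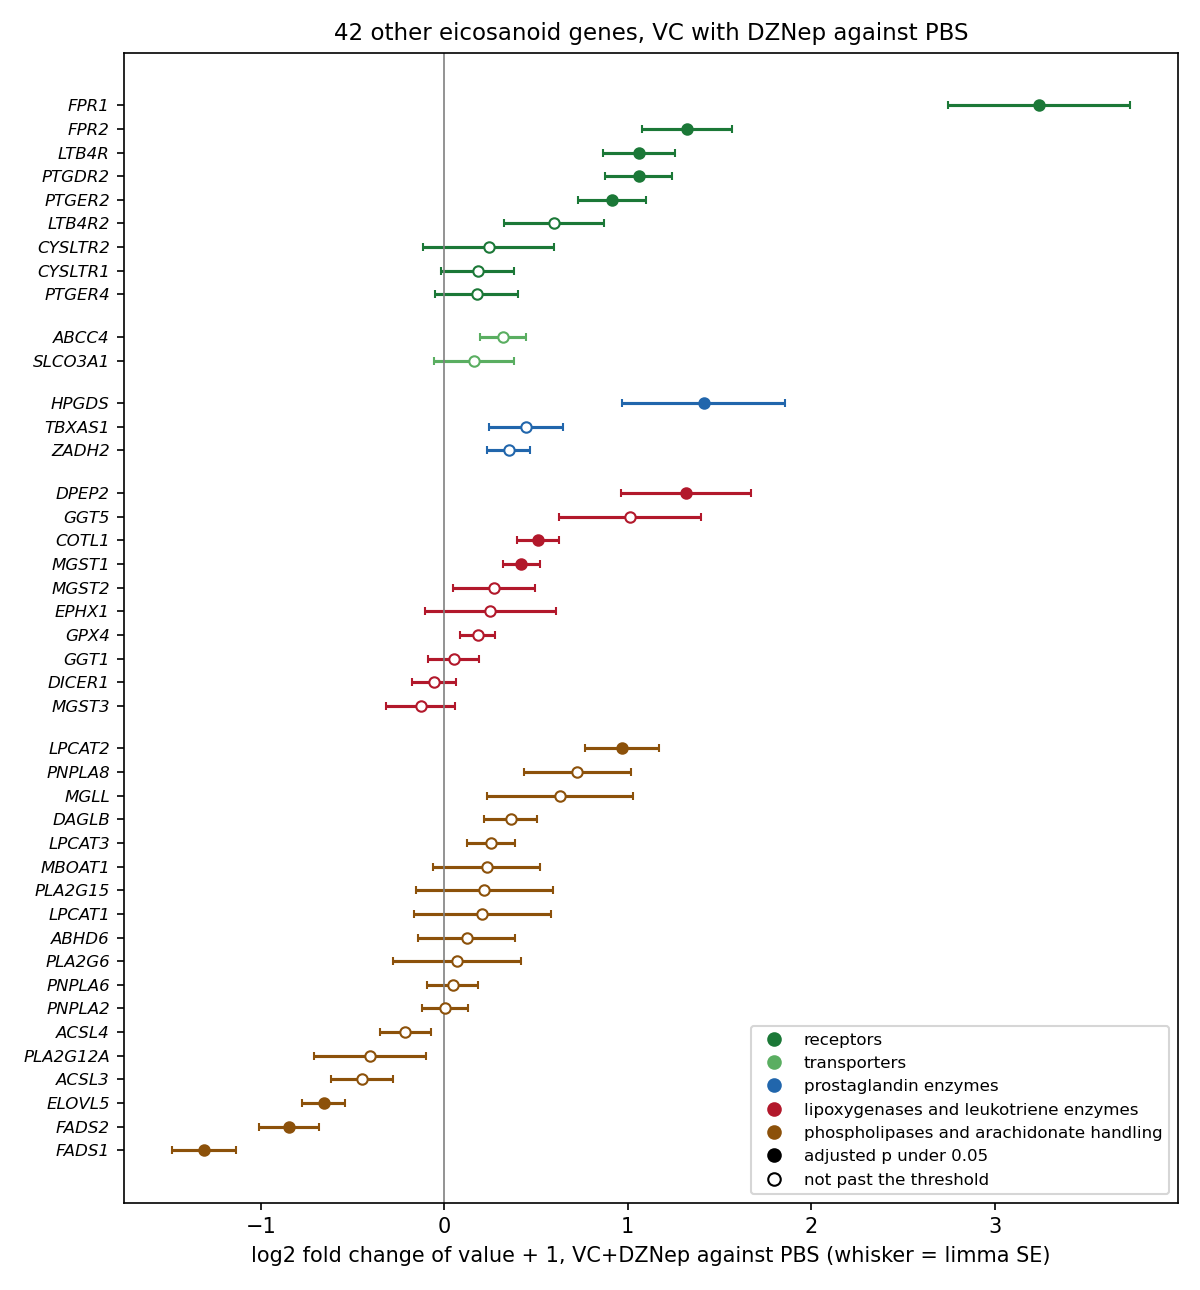
Log2 fold change of 42 other eicosanoid genes for VC with DZNep against PBS (horizontal axis, whiskers are limma SE), grouped by role in colour and filled where the adjusted p was under 0.05. All 9 receptors lie right of 0 and 5 of them are filled, 1 being FPR1, at the lowest value of the table without DZNep, while FADS1, FADS2 and ELOVL5 are the 3 filled points left of 0.

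Markers of other cell types and of myeloid maturation moved with DZNep beside these genes, and their part in the results was not tested. LTC4S and PTGDR2 are typically found in eosinophils, basophils and mast cells. LTC4S was highest with DZNep alone, at 44 and 40 units, against 27 and 22 with VC and DZNep. Of 14 markers of these cells the table held CLC, RNASE2, CPA3 and GATA2. Their summed scores, which are not amounts of RNA, were 1720 and 1527 units with VC and DZNep and 1138 and 1388 with DZNep. They were 394 and 432 with VC and 650 and 504 with PBS. Without DZNep the sums were mostly GATA2, and with DZNep mostly CLC and GATA2 together. CLC was at 660 and 643 units with VC and DZNep, 362 and 386 with DZNep, 13 and 30 with VC, and 32 and 22 with PBS. The sums were highest with VC and DZNep, but the single markers did not share that order. RNASE2 was at 72 and 100 units with VC and DZNep and 92 and 108 with DZNep. The combination against DZNep gave 0 calls among these 4 markers, where 0.673% of all genes were called, and LTC4S was not called there either. Apart from CPA3, which averaged under 10 units without DZNep, 3 of 3 rose with the combination and 2 of 3 with DZNep, where 9.52% and 6.42% of all genes were called higher. Of 9 monocyte and neutrophil markers the table held 8 and 7 were tested. Their sums were 1334 and 1320 units with VC and DZNep, 1011 and 1111 with DZNep, 826 and 905 with VC, and 815 and 798 with PBS. Apart from S100A8, which averaged under 10 units without DZNep, 3 of 6 were higher and 1 lower in the combination and likewise with DZNep. Over all genes 9.52% were called higher and 10.2% lower in the combination, and 6.42% and 6.63% with DZNep. The marker that fell was CSF3R, with log2 fold changes of -1.46 and -0.98. The 3 lymphoid markers held summed to 62 and 72, 50 and 60, 43 and 37, and 37 and 33 units in the same order, and 2 of them, CD2 and CD79A, averaged under 10 units without DZNep. ITGA2B, the megakaryocyte integrin gene and the only marker held of 8 erythroid and megakaryocyte ones, was at 413 and 394, 718 and 620, 380 and 380, and 450 and 374 units. Of a list of 6 genes set as markers of adherent cells the table held only PECAM1 and VIM. Their sums were 188 to 282 units over all libraries, and PECAM1 was called higher in the combination. HL60 grows in suspension, so nothing about adherent cells is read from these 2 genes. No marker is at 0, since the lowest value of the table is 2.

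The genes whose profiles lay closest to those of ALOX5AP and HPGD were found by the root mean square difference of log2(value + 1), each gene centred on its own mean over the 8 libraries, among genes with a mean of at least 50 units. For ALOX5AP they were MLC1 (0.140), RAB7B (0.149), ANKRD28 (0.156), HIST1H2BK (0.157) and CDC42EP3 (0.168), where the median over 6629 genes was 0.617. For HPGD, 4 of the 5 closest were PDE4DIP (0.204), the lysozyme gene LYZ (0.210), the succinate receptor gene SUCNR1 (0.293) and the monocyte chemokine gene CCL2 (0.299), against a median of 0.785 over 6630 genes. Among the 8 genes themselves the closest pairs were PTGES2 with PTGES3 (0.143) and LTA4H with PTGS1 (0.160). LYZ was at 116 and 108 units with VC and DZNep, 84 and 78 with DZNep, 48 and 54 with VC, and 26 and 33 with PBS. These genes were chosen for their likeness over the same 8 libraries, so what they share with ALOX5AP or HPGD there is set by the choice.

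**Figure D4:**
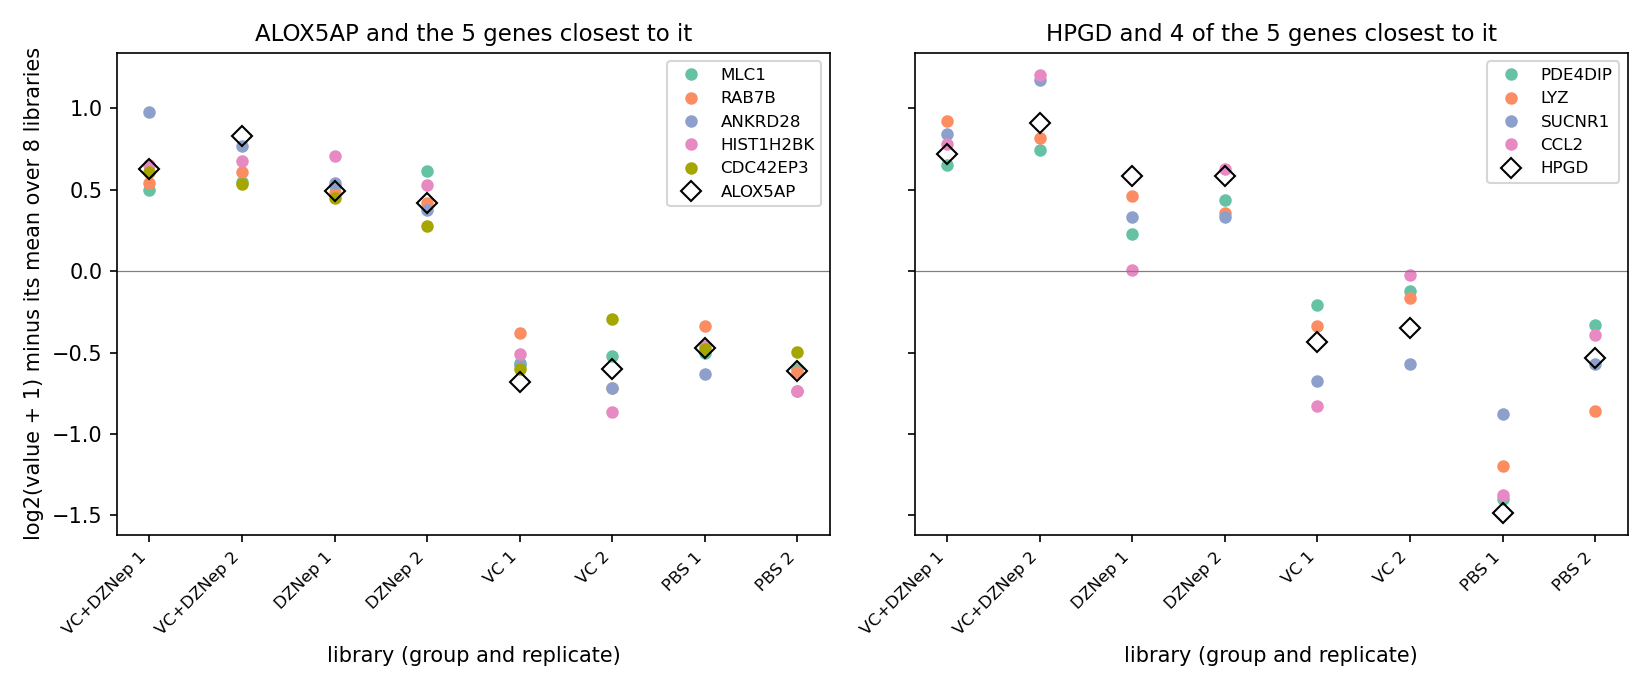
Log2(value + 1) minus its mean over 8 libraries (vertical axis) in each library (horizontal axis) for ALOX5AP and HPGD (open diamonds) and genes closest to each (circles, 5 for ALOX5AP and 4 for HPGD). The spread of the PBS libraries seen for HPGD (14 and 28 units) is also seen for PDE4DIP (20 and 43 units) and CCL2 (34 and 68 units).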

How the data were processed

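RNA was measured in 8 HL60 libraries, for which an Illumina TruSeq kit was used per the labels. Per the submitters' processing notes the tools were DESeq 1.18.1, HTSeq 0.6.0, SAMtools 1.3.1 and HISAT2 2.0.4, on GRCh38 (hg38). The sheet's name points to EDASeq as well. The deposited value is a score, a whole number per gene normalized by the authors, not a read count: all 8 libraries hold identical sorted values. In each library the 10 genes at the highest value fell 1 in each decile of gene span (80 of 80 combinations), so values behave as ranks within span deciles. Settings, annotation and gene filter are not given in the sources used here. Columns named control were taken as PBS, the only drug-free group.

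Genes with a mean under 10 units were dropped (30 genes). The other 9513 were fitted in R 4.3.3 with limma 3.58.1 on log2(value + 1), with 1 mean per group, an intensity trend in the prior variance, 4 residual and 6.46 prior degrees of freedom, and 6 comparisons. P values were adjusted over all genes (Benjamini-Hochberg, threshold 0.05). The fit was also run on simulated data with independent noise in each library. That run cannot check values ranked within span deciles or replicates that are technical, and no result here rests on it. Alternatives were another pseudocount, other filters, no trend, a robust prior, only the libraries compared, median-of-ratios scaling, the replicate number as a block, and leaving out each library. Coordinates and exon overlaps come from GENCODE 29 (GRCh38), which matched 9543 gene identifiers, and promoters from RefSeq (GRCh38.p14), which matched all 8 genes. All 8 genes of the set were named. Of the other eicosanoid genes, 16 were called in some comparison and the 12 with the smallest p were named; for ALOX5AP and HPGD the 5 closest profiles were taken, and 1 of those of HPGD is not reported here. The genes and lists were chosen with earlier results of these data known.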

Additional observations from a re-analysis of the deposited data

How the results depend on the processing

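Each of the 6 comparisons was recomputed under 16 alternatives, except that the fit of only the libraries compared cannot give the interaction. Of 742 recomputed values for the 8 genes, 719 kept their direction where called and their side of the threshold, 21 calls were lost, 2 were gained (both PLA2G4A in the combination against VC, at an adjusted p of 0.0468 with a pseudocount of 10 and 0.0363 without the intensity trend) and 0 reversed. Members called with DZNep numbered 2 instead of 4 with a mean of at least 50, which removes PLA2G4A, LTC4S and HPGD from the test, and 2 with only the libraries compared. For the combination against PBS both settings gave 3 instead of 5. Leaving out each library gave 2 to 4 members called for DZNep, 4 to 5 for the combination against PBS, 1 to 4 for the combination against VC, and 0 for VC, for VC added to DZNep and for the interaction.

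Among the other eicosanoid genes named, calls against PBS ended with only the libraries compared for PTGER2, PTGDR2 and ELOVL5 with DZNep and for LPCAT2, COTL1 and MGST1 with the combination. They ended without the intensity trend for PTGER2 and ELOVL5 with DZNep and for LPCAT2, COTL1 and MGST1 with the combination.

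Over all genes, counts without the intensity trend were 739 for DZNep (1242 in the chosen fit), 928 for the combination against VC (1429), 2 for VC added to DZNep (64) and 0 for the interaction (2). With only the libraries compared they were 454 for DZNep, 894 for the combination against PBS (1875) and 4 for VC added to DZNep. A robust prior gave 136 for VC added to DZNep and 0 for the interaction, median-of-ratios scaling 107 for VC added to DZNep and 1 for VC (0), and a mean of at least 50 gave 1 for the interaction. Leaving out each library gave 438 to 1028 for DZNep, 0 to 1 for VC, 866 to 1649 for the combination against PBS, 4 to 78 for VC added to DZNep, 501 to 1553 for the combination against VC and 0 to 2 for the interaction. Where no construction is named, the cause was not tested.

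Replicate numbers are shared between groups, but deviations of same-numbered libraries correlated at only -0.0467 to 0.091, so the numbers are not shown to pair the samples. With the replicate block the counts over all genes were 1367 for DZNep, 1944 for the combination against PBS, 95 for VC added to DZNep, 1508 for the combination against VC, 0 for VC and 3 for the interaction, and members called were 4, 5, 0, 4, 0 and 0. Depth per library is unknown, and 2 libraries a group limit precision. Values of LTC4S, HPGD and PLA2G4A lie in the range where neighbouring values of the table differ by up to 0.0931 on the log2 scale.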
